A study of Mus musculus with 14 samples.

Results

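The genes described here encode proteins of homologous recombination, of the Fanconi anaemia pathway for DNA crosslinks and of the checkpoint that both signal through, measured in mouse primordial germ cells. They were chosen by name: 37 symbols were listed, and a probe set was taken only where the platform annotation gives it exactly 1 of these symbols. Where several probe sets carried a symbol, the brightest on average over the 14 arrays stands for the gene. This gave 35 genes of the 18193 genes that were tested, and Xrcc2 and Rbbp8 were not analysed here. The 35 genes have 75 probe sets, and 24 of them have more than 1.

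Primordial germ cells are the embryonic precursors of eggs and sperm. They were profiled by expression array, with 2 biological replicates per the labels in each of 7 groups, in a study of how imprints are lost through DNA replication. The sexed groups were E13.5 males, E13.5 females, E12.5 males and E12.5 females, where E stands for embryonic day, and the groups at E11.5, E10.5 and E9.5 carry no sex label. All germ cells from E10.5 onwards were sorted by fluorescence from trypsinised genital ridges of embryos with a stella-EGFP transgene, a reporter of the germ cell gene Stella (Dppa3). These embryos had BDF1 mothers and transgenic fathers of B6/CBA mixed background, and their strain is labelled mixed except on replicate 1 of the E12.5 males and of the E12.5 females, which have no strain label. The E9.5 cells were of strain C57BL/6, have no transgene label and no sort described, and were amplified with 22 PCR cycles in place of 12. Each array started from 5 ng of RNA, which the labels equate with 500 cells.

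Homologous recombination repairs a broken chromosome by copying the intact sister: the break is sensed and resected, BRCA proteins prepare the single strand for the search of the sister, and nucleases or helicases separate the joined molecules. The Fanconi proteins detect crosslinks at stalled replication forks, and a core complex attaches ubiquitin to FANCD2 and FANCI so that nucleases can unhook the crosslink. Germ cells depend on both: mice that lack a Fanconi core gene are born with few germ cells, and recombination of breaks made on purpose is the central event of meiosis, which female germ cells enter in the fetal ovary and male germ cells only after birth.

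The sequences before the gene starts are shown for the genes on which the results turn. Against E10.5, Atm and Atr passed as higher at E13.5 in both sexes, and Palb2 and Brca2 in females only. Mus81 passed as different between the sexes at E13.5, and Fancb at E12.5 and E13.5. Of these calls, only those of Atm, Atr and Palb2 in females held whichever array was left out. Each line gives 250 bases before the start that the RefSeq promoter table uses (build GRCm38.p6), read 5′ to 3′ on the strand of the gene. That start lies inside the outer limits that RefSeq gives for the gene in all of these except Atr. Capitals mark a form of the binding sequence of E2F, the transcription factor family of S phase.
Atm, chr9:53536672-53536921, minus strand: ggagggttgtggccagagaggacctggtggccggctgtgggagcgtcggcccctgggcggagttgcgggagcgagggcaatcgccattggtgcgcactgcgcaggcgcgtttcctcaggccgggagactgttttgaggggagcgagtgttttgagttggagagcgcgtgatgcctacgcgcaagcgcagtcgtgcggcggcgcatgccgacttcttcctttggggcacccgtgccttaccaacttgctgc
Atr, chr9:95857347-95857596, plus strand: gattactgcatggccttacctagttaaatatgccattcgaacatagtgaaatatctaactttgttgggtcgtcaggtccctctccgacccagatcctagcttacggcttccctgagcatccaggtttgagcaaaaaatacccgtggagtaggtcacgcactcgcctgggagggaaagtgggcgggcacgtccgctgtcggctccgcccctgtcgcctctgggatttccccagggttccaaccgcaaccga
Palb2, chr7:122132947-122133196, minus strand: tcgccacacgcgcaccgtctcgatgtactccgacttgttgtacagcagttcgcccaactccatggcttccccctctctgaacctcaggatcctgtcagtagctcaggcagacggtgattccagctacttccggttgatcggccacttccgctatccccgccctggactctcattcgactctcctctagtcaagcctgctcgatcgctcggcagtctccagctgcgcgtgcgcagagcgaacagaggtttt
Brca2, chr5:150522371-150522620, plus strand: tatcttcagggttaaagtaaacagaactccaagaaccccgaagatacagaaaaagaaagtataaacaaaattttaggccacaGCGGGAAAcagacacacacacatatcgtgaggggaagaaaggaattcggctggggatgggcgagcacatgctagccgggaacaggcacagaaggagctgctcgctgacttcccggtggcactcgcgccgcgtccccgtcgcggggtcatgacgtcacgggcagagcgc
Mus81, chr19:5488380-5488629, minus strand: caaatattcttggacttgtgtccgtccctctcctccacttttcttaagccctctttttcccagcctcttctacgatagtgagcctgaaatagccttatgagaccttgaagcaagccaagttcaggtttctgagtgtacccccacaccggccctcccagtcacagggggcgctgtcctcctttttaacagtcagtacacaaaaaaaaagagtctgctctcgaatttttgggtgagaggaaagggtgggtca
Fancb, chrX:164980342-164980591, plus strand: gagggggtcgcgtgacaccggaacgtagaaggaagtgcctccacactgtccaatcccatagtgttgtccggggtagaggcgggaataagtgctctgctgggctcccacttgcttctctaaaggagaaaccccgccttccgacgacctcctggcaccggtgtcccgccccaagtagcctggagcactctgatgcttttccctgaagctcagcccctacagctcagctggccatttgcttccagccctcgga

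Of the 35 genes, 28 had a promoter in that table. The search used TTTCCCGC, TTTGGCGC, TTTCGCGC and TTTGCCGC on both strands, and a gene was counted once. A match stood in 5 of the 28 promoters (17.9%): those of Bard1, Brca2, Chek2, Fancg and Topbp1. The share over all promoters in the table was 2.2% (583 of 27025 genes). The sequences CCAAT and GGGCGG were searched as well and were also more frequent in the repair genes. CCAAT stood in 15 of the 28 promoters (53.6%, against 37.5% of all genes) and GGGCGG in 16 (57.1%, against 35.4%). The number of CpG dinucleotides in the 250 bases had a median of 17 in the repair genes (2 to 33) and of 6 over all genes (0 to 56). Of the sequences printed, Atm had 24 CpGs and Mus81 had 5. Such matches are descriptions of letters and were not tested as binding sites.

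Values are log2 signals, so a difference of 1 is a doubling of signal. The authors had normalized the 14 arrays jointly. Signals at or above 4.72, the median of the table, were held by 34 of the 35 genes, and the exception was Mlh3, with a mean of 4.34. The median gene of the set had a mean signal of 9.21, and the median of all genes tested was 6.38. The log2 of the summed signal of 9 germ cell markers lay between 15.09 and 15.63 on the 14 arrays. The brightest genes weigh most in such a sum, and members moved in opposite directions. Against E10.5, Dazl and Ddx4, markers of later germ cells, rose by 4.27 and 2.06 in E13.5 females and by 4.26 and 1.91 in E13.5 males (limma). Of the early markers, Tfap2c and Sox2 fell in both sexes (Tfap2c by 1.26 in females and 2.42 in males), Pou5f1 and Prdm1 fell in females, and Kit fell in males. Sex was checked with the Y-linked gene Eif2s3y, which read 11.53 and 11.32 in E13.5 males and 5.93 and 2.58 in E13.5 females. At E12.5 it read 10.67 and 10.90 in males and 1.61 and 2.53 in females. On the arrays of the unsexed groups it read between 9.32 and 10.2, so these groups included male cells. Replicate 1 of the E13.5 females had a higher Y-linked signal than replicate 2, and the calls that use it are also given without it. For Gapdh, the signal of the 3′ probe set minus that of the 5′ one served as a measure of RNA integrity. It was 3.16 in replicate 2 of the E13.5 males, 3.09 in replicate 2 of the E13.5 females and 2.53 or less on all other arrays. With the Actb probe sets, these arrays read 2.94 and 3.09, within the 2.18 to 3.39 of the 14 arrays. Their replicates 1 read 3.29 and 3.13, so Actb did not single out the 2 arrays.

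**Figure D1:**
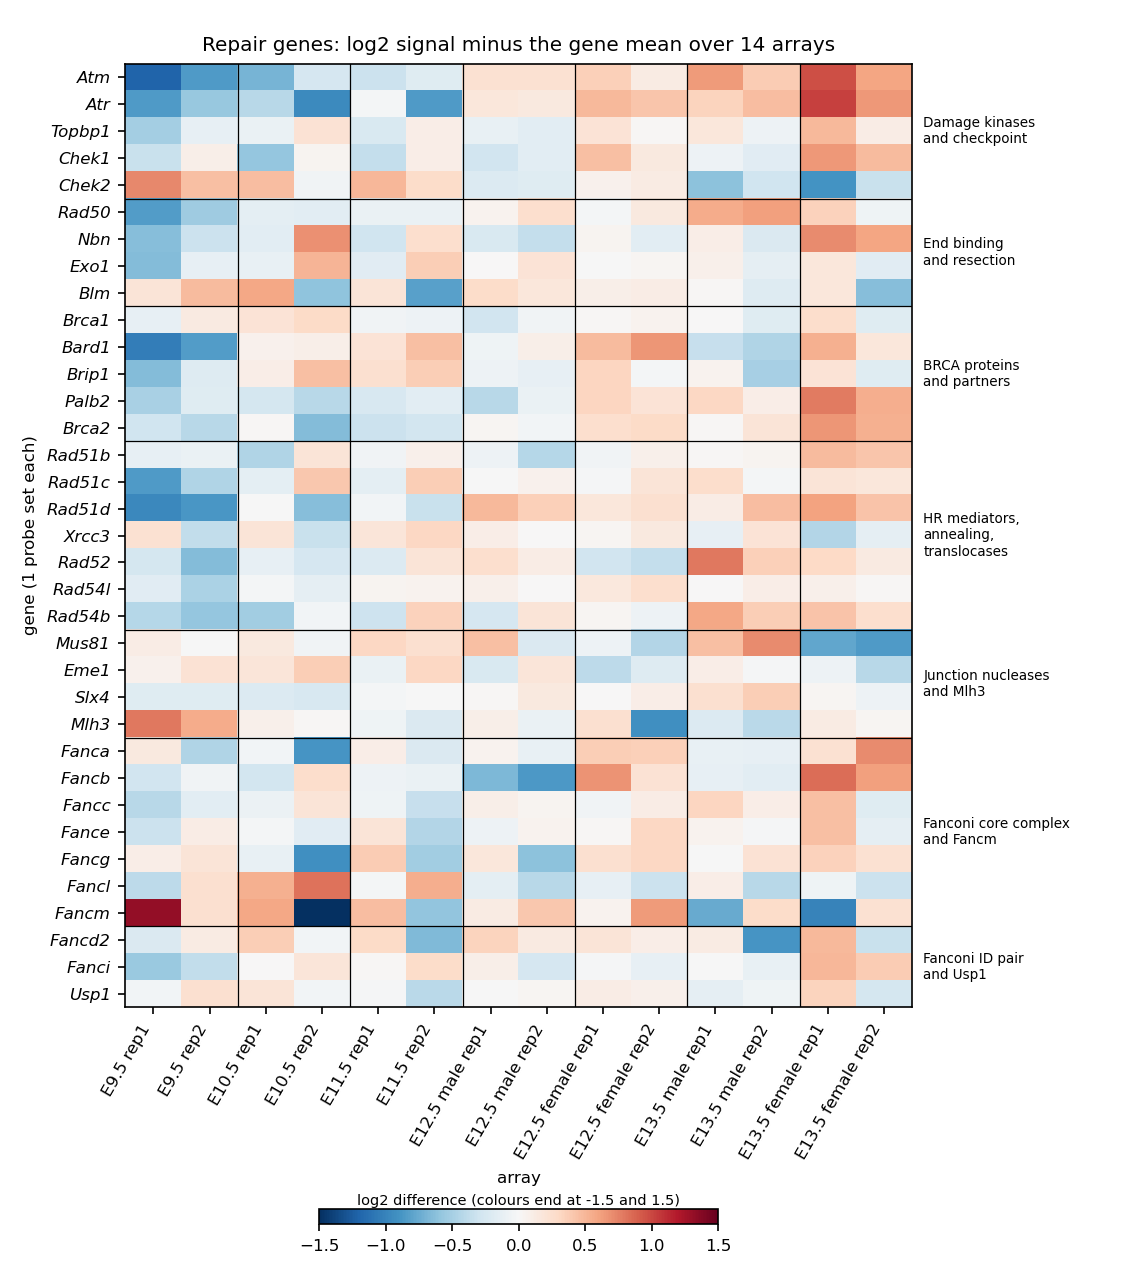
Log2 signal of each of the 35 repair genes (rows, grouped by role) on each of the 14 arrays (columns, by group), minus the gene's own mean over the arrays; red is above and blue below that mean. Atm and Atr are blue or pale before E12.5 and red on the E13.5 female arrays, Mus81 is blue on the E13.5 female arrays and red on the E13.5 male arrays, and Fancm varies most between replicates.

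Over the 14 arrays, 26 of the 35 genes spanned 1 or more on the log2 scale, and the median range was 1.26. The range of a gene over all 14 arrays was smallest for Brca1, the tumour suppressor that steers breaks towards recombination, at 0.57 (10.79 to 11.36). Slx4, the scaffold that holds several nucleases, spanned 0.61, and Rad54l, a motor protein of strand exchange, spanned 0.72. The widest range was that of Fancm, a translocase that recognises stalled forks, at 3.27. Its replicates differed widely, with 5.69 on one E10.5 array, and no comparison involving it passed. Atm spanned 2.16 and Atr 1.98, and their signals followed the age of the embryo.

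The comparison of E13.5 with E10.5 asked which repair genes change while the cells colonise the gonad, lose DNA methylation and start to differ between the sexes. In females, 10 of the 35 genes passed (28.6%; limma, adjusted p under 0.05 over all genes tested), against 17.8% of all genes and 24% of the 12100 genes not below the table median. Atr, Atm, Palb2, Brca2, Fanca, Rad51d and Chek1 rose, and Fancl, Mus81 and Chek2 fell. The median change of the 35 genes was 0.26, against 0.08 for all genes and 0.11 for those not below the table median. This median uses E13.5 female replicate 1 and is not given without it. In males, 4 genes passed and all rose: Atr, Atm, Rad52 and Rad50. That is 11.4%, against 12.7% of all genes and 17% of those not below the table median. The median change was 0.12, against 0.07 for all genes and 0.11 for those not below the table median. Both sexes are set against the same E10.5 arrays. These included male cells and carry no sex label, so their share of female cells is not known. Age and sex are thus not fully separated in either comparison. Without the 2 arrays of a Gapdh difference above 3, calls remained for Atr, Atm, Palb2 and Chek2 in females and for Atm in males. Without E13.5 female replicate 1, calls remained for Atr, Atm and Palb2 in females, where 10.4% of all genes passed. When each gene was the mean of its probe sets, 5 of the 35 genes passed in females, as did 2488 of all 18193 genes. In males 1 of the 35 and 1826 of all genes passed. Among them calls remained for Palb2, Brca2, Chek2 and Fanca, and in males a call remained for Atr. Palb2, Brca2 and Chek2 have only 1 probe set, so this setting could not alter their signals. The means of Fanca and Atr take in probe sets that lie below the table median. Fitted on the 4 compared arrays alone, no repair gene passed in either sex, while 981 of all 18193 genes passed in females and 566 in males.

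The clearest change was in the damage kinases. Atm encodes the kinase that responds to double-strand breaks (chr9:53437122-53536828). Its signal was 8.17 and 8.52 at E9.5, 8.67 and 9.11 at E10.5, 9.04 and 9.18 at E11.5, 9.60 and 9.59 in males at E12.5, 9.72 and 9.49 in females at E12.5, 10.00 and 9.75 in males at E13.5 and 10.33 and 9.96 in females at E13.5. Every E12.5 and E13.5 array lay above every earlier one. Against E10.5, Atm rose by 1.25 ± 0.22 (SE; 2 arrays per group) in E13.5 females, or 2.39-fold (limma, adjusted p = 0.00233). In E13.5 males the rise was 0.98 ± 0.22, or 1.98-fold (adjusted p = 0.0125). The female call held whichever array was left out (adjusted p 0.0294 without E13.5 female replicate 1). The male call was lost without E13.5 male replicate 1 (0.101) and without E10.5 replicate 1 (0.0503). A second Atm probe set read 8.47 and 8.44 in E13.5 females and 8.24 and 8.11 in E13.5 males, against 8.01 and 8.97 at E10.5. With the mean of both, the change was 0.61 in females (adjusted p = 0.145) and 0.34 in males (0.486).

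Atr encodes the kinase that responds to exposed single-stranded DNA at stalled forks (chr9:95857597-95953217). Its signal was 10.18 and 10.47 at E9.5, 10.62 and 10.08 at E10.5, 11 and 10.18 at E11.5, 11.20 and 11.18 in males at E12.5, 11.52 and 11.45 in females at E12.5, 11.37 and 11.50 in males at E13.5 and 12.06 and 11.68 in females at E13.5. The arrays from E12.5 on all lay above those before, though one E11.5 array came close. Atr rose by 1.52 ± 0.27 in E13.5 females against E10.5, or 2.87-fold (limma, adjusted p = 0.00282), and by 1.08 ± 0.27 in E13.5 males, or 2.12-fold (adjusted p = 0.0233). The female call held without any single array (adjusted p 0.0341 without E13.5 female replicate 1). The male call held only without E10.5 replicate 1 (0.0124), and the other 3 omissions gave adjusted p between 0.0881 and 0.129. The 2 other Atr probe sets had means of 4.71 and 2.63, below the table median. With the mean of all 3, the female change was 0.80 (adjusted p = 0.141) and the male change 1.54 (0.0123). The dimmest of them read 2.89 and 6.22 in E13.5 males against 1.13 and 2.0 at E10.5, so 1 array weighs heavily in the male value. On the compared arrays alone the female call was lost (0.0538), and likewise with crossed replicate numbers as a block there (0.0622).

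The effectors of these kinases went different ways. Chek1, the checkpoint kinase that ATR activates, read 10.19 and 10.02 in E13.5 females against 8.96 and 9.59 at E10.5, a rise of 0.83 ± 0.24 (limma, adjusted p = 0.0394). The E13.5 male arrays gave a change of 0.15 ± 0.24, which did not pass. Chek2, the kinase that ATM activates, read 8.31 and 8.87 in E13.5 females against 9.67 and 9.16 at E10.5, and fell by 0.82 ± 0.25, to 0.56 times the E10.5 level (adjusted p = 0.0415). In E13.5 males Chek2 read 8.59 and 8.91, a change of -0.66 ± 0.25 that did not pass (adjusted p = 0.114). Both female changes were free of overlap between groups but rested on single arrays: the Chek1 call held only without E10.5 replicate 2 (adjusted p 0.00917, otherwise 0.0915 to 0.182). The Chek2 call was lost without E13.5 female replicate 1 (0.264) or E10.5 replicate 1 (0.178). Topbp1, which activates ATR, gave 0.24 in females and -0.01 in males and did not pass.

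**Figure D2:**
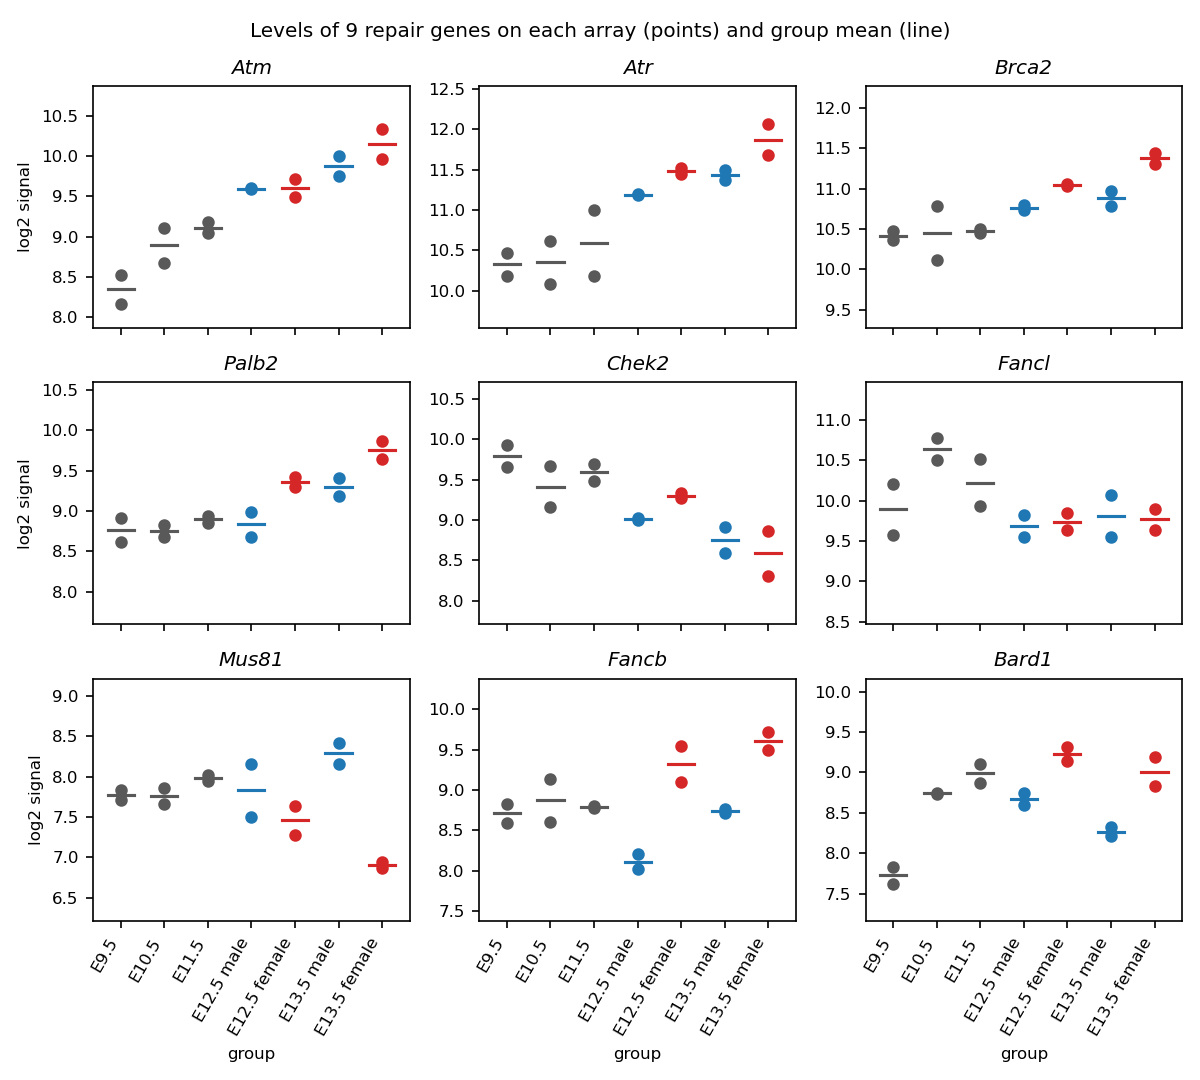
Log2 signal of 9 repair genes on each array (points) with the group mean (line), by group from E9.5 to E13.5, males in blue, females in red and unsexed groups in grey; each panel spans 3 log2 units. Atm and Atr climb with age, Chek2 declines, Mus81 parts upwards in E13.5 males and downwards in E13.5 females, and Fancb and Bard1 lie lower in males at both sexed ages.

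Among the BRCA proteins, Palb2 and Brca2 rose in females. Palb2, the bridge between BRCA1 and BRCA2 (chr7:122107262-122132980), read 9.87 and 9.64 in E13.5 females and 9.41 and 9.19 in E13.5 males, against 8.83 and 8.68 at E10.5. All E13.5 arrays lay above both E10.5 arrays, and the females above the males. The female rise was 1.0 ± 0.19 (limma, adjusted p = 0.00456) and held without each array in turn (0.0454 without E13.5 female replicate 1). The male change of 0.55 ± 0.19 did not pass (adjusted p = 0.0992). Brca2, a tumour suppressor of recombination (chr5:150522297-150570147), read 11.44 and 11.31 in E13.5 females and 10.79 and 10.97 in E13.5 males, against 10.79 and 10.12 at E10.5. Its female arrays stood above E10.5 without overlap, and 1 male array equalled the higher E10.5 array. Brca2 rose by 0.92 ± 0.21 in females, or 1.89-fold (adjusted p = 0.0112; 0.077 without E13.5 female replicate 1), and the change in males of 0.42 ± 0.21 did not pass. In contrast to these, Brca1 gave -0.20 in females and -0.33 in males, and the helicase gene Brip1 gave -0.26 and -0.50, none of which passed.

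Another set holds mediators of recombination, an annealing protein and motor proteins. Rad51d, a mediator that forms a complex with the products of Rad51b and Rad51c, read 7.79 and 7.61 in E13.5 females against 7.17 and 6.54 at E10.5, a rise of 0.84 ± 0.25 (limma, adjusted p = 0.0435). The groups did not overlap, but the call held only without E10.5 replicate 1 (0.0126, otherwise 0.0977 to 0.218), and the rise was 0.52 with the mean of its probe sets (0.279). Rad52, which anneals single strands, read 8.89 and 8.45 in E13.5 males against 7.97 and 7.85 at E10.5, a rise of 0.76 ± 0.22 (adjusted p = 0.0489). Leaving out any of the 4 arrays ended that call (0.0568 to 0.287). Rad54b, a motor protein, gave 0.62 in females and 0.76 in males, and Rad51b gave 0.57 and 0.16. Neither passed in either sex, and Rad51c, Xrcc3 and Rad54l lay between -0.22 and 0.14.

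Of the genes for break ends and resection, Rad50, the long coiled-coil subunit of the MRE11 complex (chr11:53649519-53707319), passed in males. It read 11.75 and 11.81 in E13.5 males and 11.34 ± 0.29 (SD, n = 2) in E13.5 females, against 11.05 and 11.03 at E10.5. The male arrays were higher than all others. The male rise was 0.74 ± 0.17, or 1.67-fold (limma, adjusted p = 0.0172; 0.0782 without E13.5 male replicate 1 and 0.102 without replicate 2). A second, dimmer Rad50 probe set read 4.70 and 4.97 in E13.5 males against 5.07 and 5.00 at E10.5, a change of -0.20 ± 0.31. With the mean of both probe sets the male change was 0.27 (adjusted p = 0.402). Nbn, its partner that recruits ATM, gave 0.38 in females and -0.32 in males. Exo1, an exonuclease of resection, and Blm, a helicase, gave -0.20 and -0.22 in females and -0.23 and -0.08 in males. None of these 3 passed.

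Of the genes that cut joined molecules, Mus81 fell in females. Mus81 is a nuclease that cleaves forks and crossing strands together with EME1 (chr19:5482561-5488389). It read 6.94 and 6.87 in E13.5 females, against 7.86 and 7.66 at E10.5. The female arrays were the lowest of the 14, and the fall was 0.85 ± 0.25, to 0.55 times the E10.5 level (limma, adjusted p = 0.0404). Omission of any of the 4 arrays ended this call (0.0582 to 0.147). Eme1 gave -0.52 in females and -0.24 in males, Slx4 gave 0.20 and 0.53, and Mlh3 gave 0.03 and -0.36, none of which passed.

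In the Fanconi core complex, 1 gene rose and 1 fell in females. Fanca read 9.30 and 9.78 in E13.5 females against 9.04 and 8.19 at E10.5, a rise of 0.92 ± 0.28 (limma, adjusted p = 0.0427) that held only without E10.5 replicate 1 (0.0045, otherwise 0.0575 to 0.243). With the mean of its probe sets the Fanca rise was 1.57 (adjusted p = 0.0492). The second Fanca probe set had a mean of 1.24, below the table median. It read 2.29 and 3.37 in E13.5 females against 1.25 and 0 at E10.5. Fancl, the ubiquitin ligase of the complex, read 9.90 and 9.64 in E13.5 females and 10.07 and 9.55 in E13.5 males, against 10.50 and 10.78 at E10.5. Both sexes lay below E10.5 without overlap. The change was -0.87 ± 0.25 in females (adjusted p = 0.0370) and -0.83 ± 0.25 in males, which did not pass (adjusted p = 0.0567). The female Fancl call held only without E10.5 replicate 1 (0.0396, otherwise 0.0833 to 0.180), and the change was -0.30 with the mean of its probe sets (0.677). Fancc, Fance and Fancg gave 0.08, 0.26 and 0.80 in females, without passing. The substrates Fancd2 and Fanci gave -0.10 and 0.35 in females and -0.55 and -0.16 in males, and Usp1, which removes the ubiquitin from them, gave -0.04 and -0.18. None of these 3 passed.

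**Figure D3:**
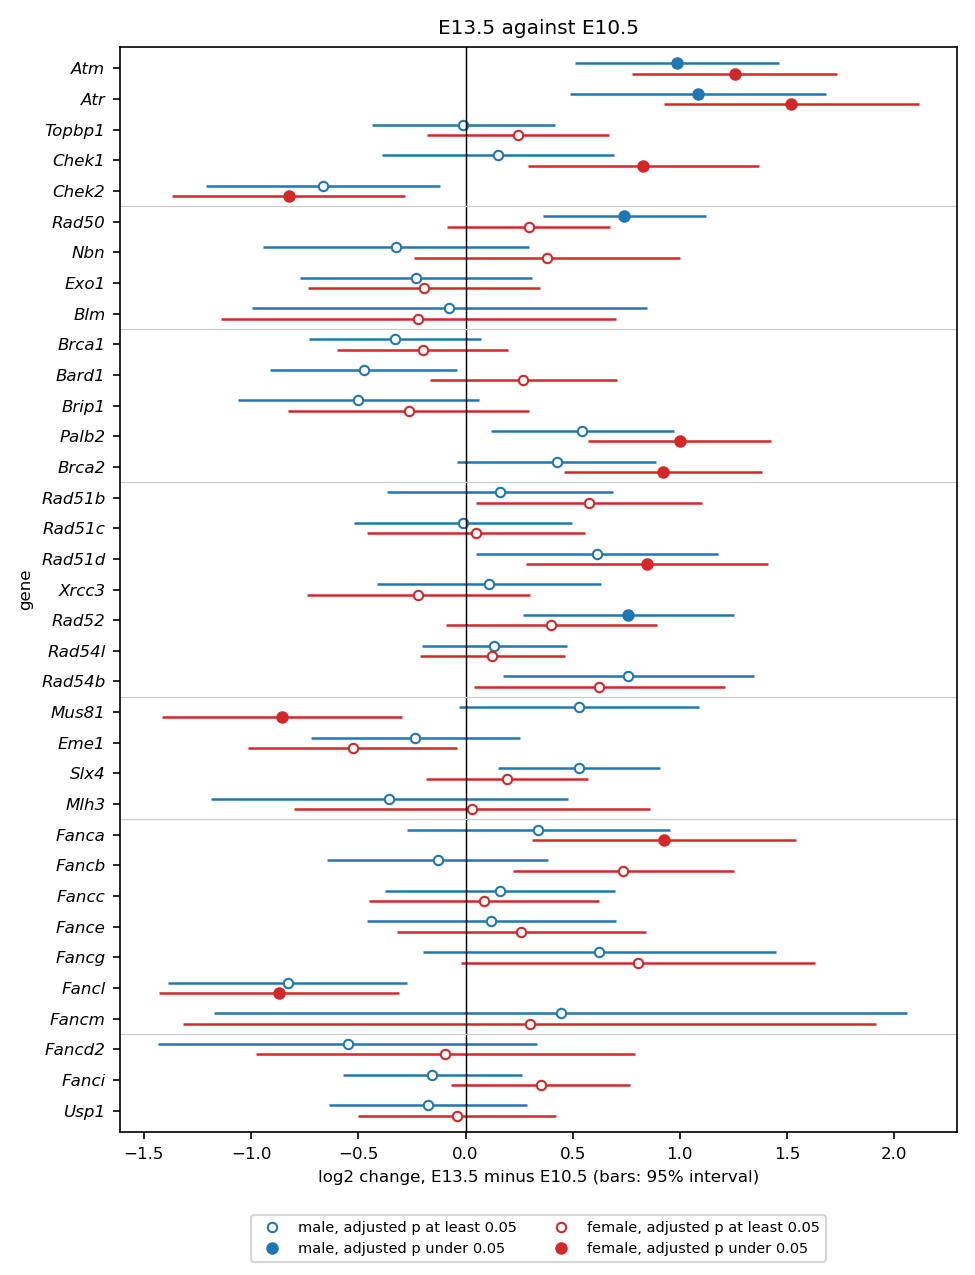
Log2 change of each of the 35 genes, E13.5 minus E10.5, in males (blue) and females (red), with 95% intervals from the limma fit; filled points have an adjusted p under 0.05 over all genes. Filled points are 4 in males, all above 0, and 10 in females, of which 7 lie above 0 and 3 below.

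Markers of other cells moved between the same groups. The log2 of the summed signal of 12 gonadal somatic genes was 8.76 and 8.63 in E13.5 females and 8.70 and 8.87 in E13.5 males. At E10.5 it was 10.29 and 9.94. That of 8 endothelial genes was 10.41 and 9.21 in E13.5 females and 10.03 and 9.42 in E13.5 males, against 11.15 and 10.59 at E10.5. That of 8 blood genes was 7.55 and 8.72 in E13.5 females and 7.31 and 9.01 in E13.5 males, against 11.73 and 11.36 at E10.5, with the globin gene Hba-a1 listed at 0 on all E13.5 arrays. In females, 3 of the 12 somatic, 4 of the 8 endothelial and 2 of the 8 blood genes fell (limma), and in males 3, 3 and 2 fell. The female counts were 2, 2 and 2 without E13.5 female replicate 1. Their part in the changes of the repair genes was not tested, and in such bulk samples fewer cells of a type and less RNA per cell cannot be told apart.

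Between neighbouring ages, changes of the repair genes were small against the spread of 2 arrays. Against E11.5, E12.5 females had 0 of 35 genes past the threshold (limma; 1.85% of all genes passed), with 5 at an unadjusted p under 0.05 (against 13.4% of all genes): Atr, Brca2, Palb2, Atm and Fancb, all higher. The E12.5 males had 0 (1% of all genes), with 5 at an unadjusted p under 0.05 (against 9.36%), of which Atm, Atr and Rad51d were higher and Fancb and Chek2 lower. E13.5 females against E12.5 females gave 0 (1.88% of all genes), with 5 at an unadjusted p under 0.05 (against 15%): Atm, Nbn, Fanci and Rad52 higher and Chek2 lower. None of the 35 had an unadjusted p under 0.05 there without E13.5 female replicate 1. E13.5 males against E12.5 males gave 0 (2.1% of all genes), with Fancb, Palb2 and Rad50 higher at an unadjusted p under 0.05 (against 14.1%). E11.5 against E10.5 gave 0 (0.077% of all genes) and none at an unadjusted p under 0.05 (against 7.07%). As 5 of 35 is 14.3%, these counts are near those over all genes or below them, save in E12.5 males.

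Between E10.5 and E9.5, 1 of 35 genes passed (2.86%, against 1.06% of all genes; limma on all 14 arrays). It was Bard1, the partner with which BRCA1 forms a ubiquitin ligase (chr1:71027535-71103141), at 8.73 and 8.75 at E10.5 against 7.62 and 7.83 at E9.5. The 4 arrays did not overlap, and the rise was 1.01 ± 0.20, or 2.02-fold (adjusted p = 0.0365). The call held without E10.5 replicate 1 (0.026) and was lost without E10.5 replicate 2 (0.174), E9.5 replicate 1 (0.223) or E9.5 replicate 2 (0.0542). At an unadjusted p under 0.05 there were 10 genes (28.6%, against 16.1% of all genes), all higher at E10.5; among them were Rad50, Fanci, Fancl and Nbn, higher by 0.54, 0.56, 0.75 and 0.74. Strain, RNA kit, PCR cycles and study differ between these ages and cannot be told apart from age. For the blood markers the log2 of the summed signal was 11.73 and 11.36 at E10.5 against 14.59 and 13.69 at E9.5. Their part in the Bard1 difference was not tested.

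Males and females were compared at both sexed ages. At E12.5, 1 of 35 genes differed (2.86%, against 2.38% of all genes; limma), and at E13.5, 3 differed (8.57%, against 10.1% of all genes). Fancb was lower in males at both ages, and at E13.5 Bard1 was lower and Mus81 higher in males. The median difference of the 35 genes, male minus female, was -0.08 at E12.5 and -0.14 at E13.5, against -0.04 and -0.02 over all genes. For the genes not below the table median it was -0.055 and -0.025. At E13.5, 22 of the 35 genes were lower in males and 13 higher, and the same count over all genes was not made. The E13.5 median and this count use E13.5 female replicate 1 and are not given without it, so no general sex difference is read from them. The log2 of the summed signal of 10 markers of gonadal supporting cells was 9.91 and 9.64 in E13.5 males. In E13.5 females it was 9.21 and 9.18, and its part in the differences of the repair genes was not tested. Of these markers, Cst9 was higher in E13.5 males by 6.44, while Irx3, Bmp2 and Wnt4 were lower by 4.11, 1.51 and 0.96 (limma), and the median difference of the list was -0.02. The Mus81 call alone remained without E13.5 female replicate 1 (5.06% of all genes passed). Without the 2 E13.5 arrays of a Gapdh difference above 3, none of the E13.5 calls remained (adjusted p 0.184, 0.183 and 0.256 for Mus81, Bard1 and Fancb).

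Mus81 gave the largest sex difference of the set. It read 8.16 and 8.42 in E13.5 males, against 6.94 and 6.87 in E13.5 females. The sexes did not overlap, and the E13.5 male with the higher value was the highest array of the 14. The difference was 1.38 ± 0.25, or 2.61-fold (limma, adjusted p = 0.00594; 0.0582 without E13.5 male replicate 2, and 0.0437 or less without each of the others). At E12.5 Mus81 read 8.16 and 7.50 in males and 7.64 and 7.28 in females, which overlap (difference 0.37 ± 0.25, not passing). The second Mus81 probe set, tested on its own, read 7.91 and 8.32 in E13.5 males against 6.91 and 6.84 in E13.5 females, a difference of 1.24 ± 0.27 (adjusted p = 0.0236, where 6.41% of all probe sets passed; 0.110 without E13.5 female replicate 1). It carries the suffix _s_at, which Affymetrix gives to probe sets that can match several transcripts. Against E10.5, the male change of 0.53 ± 0.25 had an adjusted p of 0.228.

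Fancb encodes a core complex protein that holds FANCL and lies on the X chromosome (chrX:164980480-164997272). It read 8.20 and 8.02 in E12.5 males against 9.55 and 9.10 in E12.5 females, and 8.76 and 8.72 in E13.5 males against 9.72 and 9.49 in E13.5 females. Males were below females on every array at both ages, and the unsexed groups lay between 8.59 and 9.14. A second, dimmer Fancb probe set read 5.91 and 6.28 in E12.5 males against 7.67 and 7.57 in E12.5 females. At E13.5 it read 7.08 and 4.78 in males and 8.16 and 5.23 in females, which overlap. For the probe set used, the difference was -1.22 ± 0.23 at E12.5, or 0.43 times the female level (limma, adjusted p = 0.0229). At E13.5 it was -0.86 ± 0.23, or 0.55 times (adjusted p = 0.0398). Both calls were lost with quantile normalization, with the mean of the probe sets and without the intensity trend. Leaving out any single array ended the call, at E12.5 (0.0736 to 0.258) and at E13.5 (0.0911 to 0.212). In E13.5 females against E10.5 Fancb gave 0.74 ± 0.23, just outside the threshold (adjusted p = 0.0527). It is the only X-linked gene of the 35.

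Bard1 read 8.32 and 8.21 in E13.5 males, against 9.19 and 8.83 in E13.5 females. The sexes did not overlap, and the difference was -0.74 ± 0.20, or 0.60 times the female level (limma, adjusted p = 0.0373). At E12.5 it read 8.60 and 8.75 in males and 9.14 and 9.32 in females, in the same direction and without passing (-0.56 ± 0.20, adjusted p = 0.226). The E13.5 call held only without E13.5 female replicate 2 (0.0499, otherwise 0.124 to 0.237). Brca1 itself differed by -0.13 ± 0.18 at E13.5 and did not pass.

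For the genes that rose with age in females, the difference between the sexes did not pass. At E13.5 the male minus female difference was -0.44 ± 0.27 for Atr (adjusted p = 0.404), -0.27 ± 0.22 for Atm (0.55), -0.50 ± 0.21 for Brca2 (0.19), -0.46 ± 0.19 for Palb2 (0.192) and -0.68 ± 0.24 for Chek1 (0.117). Their 95% intervals reach down to -1.03, -0.75, -0.96, -0.88 and -1.22, so a lower male level of that size lies within the error. The 5 differences lay between -0.085 and -0.595 without E13.5 female replicate 1, with adjusted p of 0.380 or more. A call in females and none in males does not show that the sexes differ in these genes. Whether the sex difference changed between E12.5 and E13.5 was tested directly, and 0 of 35 genes passed (limma; 0.011% of all genes did), with Mus81 alone at an unadjusted p under 0.05 (change 1.01 ± 0.36; 7.43% of all genes were under it).

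**Figure D4:**
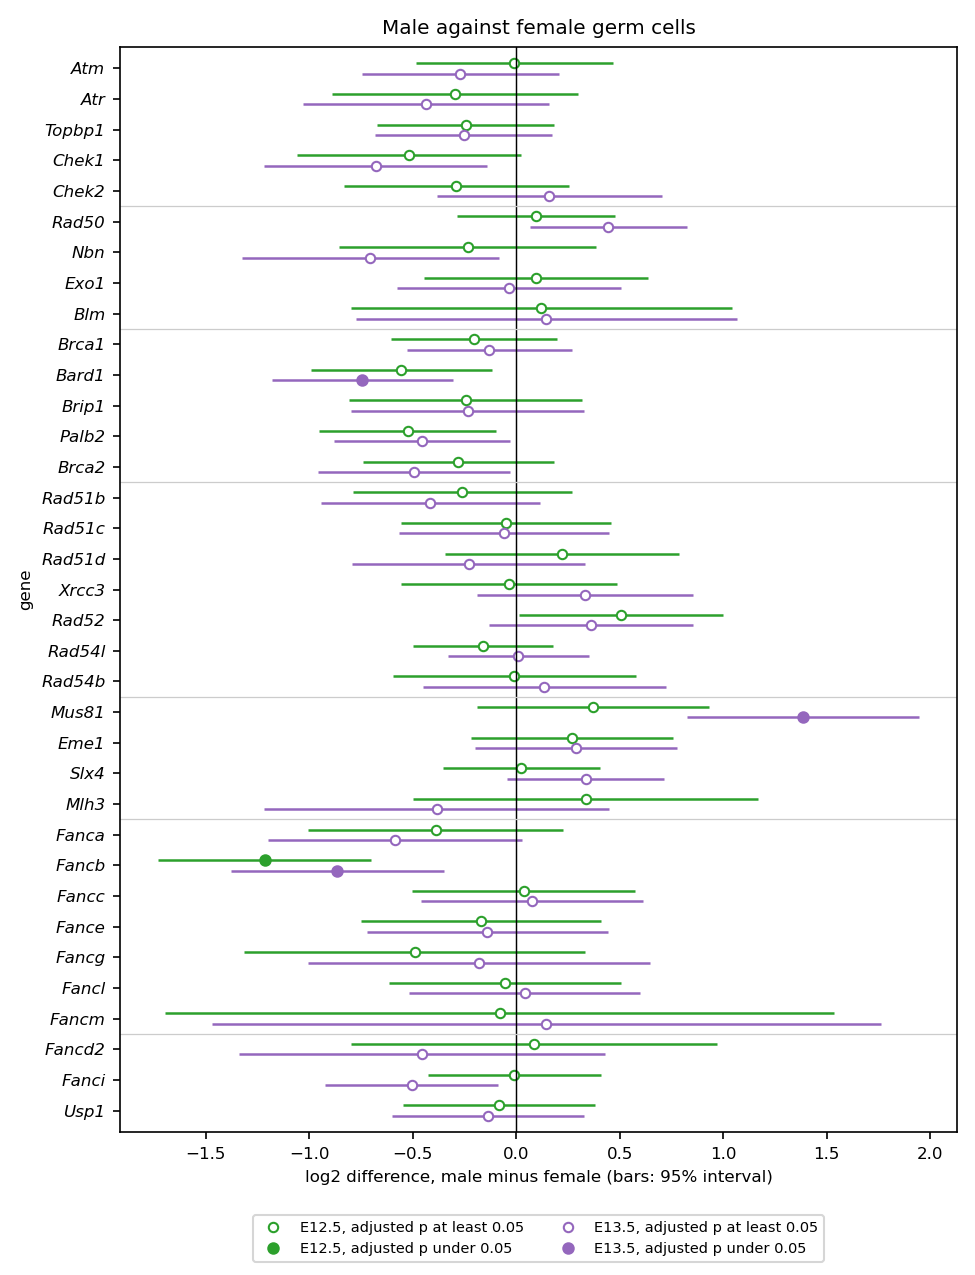
Log2 difference, male minus female, of each of the 35 genes at E12.5 (green) and E13.5 (purple), with 95% intervals from the limma fit; filled points have an adjusted p under 0.05 over all genes. Fancb is filled below 0 at both ages, Bard1 below 0 at E13.5, and Mus81 above 0 at E13.5.

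Genes with several probe sets were also read through each of them, with every probe set tested on its own over 34945 probe sets. Of these, 12.7% passed in E13.5 females against E10.5, 8.99% in E13.5 males against E10.5, 1.29% between the sexes at E12.5 and 6.41% between the sexes at E13.5. A lower Chek1 probe set gave the larger change of that gene: 8.68 and 8.99 in E13.5 females and 7.72 and 8.35 in E13.5 males, against 6.84 and 6.57 at E10.5. It rose by 2.13 ± 0.27 in females (limma, adjusted p = 0.000676; 0.005997 without E13.5 female replicate 1) and by 1.33 ± 0.27 in males (adjusted p = 0.0119). Another Chek1 probe set, as bright as the one used, gave 0.69 ± 0.28 in females and did not pass. For Fancg, whose protein helps to assemble the core complex, the dimmer probe set was lower in males at both ages. It read 5.72 and 5.55 in E12.5 males against 6.78 and 6.85 in E12.5 females, a difference of -1.18 ± 0.24 (adjusted p = 0.0498). At E13.5 it read 5.57 and 5.07 in males against 6.53 and 6.67 in females (-1.28 ± 0.24, adjusted p = 0.0115; 0.0574 without E13.5 female replicate 1). The brighter Fancg probe set gave -0.49 ± 0.38 and -0.18 ± 0.38 and did not pass, so the probe sets of this gene disagree.

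Some probe sets of the repair genes differed within replicate pairs alongside the Gapdh measure. In 5 of the 7 replicate pairs, the Gapdh 3′ to 5′ difference was unequal by more than 0.5. In all of these pairs 4 probe sets that were not used had lower signals on the array with the larger Gapdh difference. They belong to Brca1 (mean difference -2.62 and -2.36), Usp1 (-2.43) and Fancb (-1.99). In the 2 pairs with alike Gapdh values, the replicates of these probe sets differed by 0.24 to 0.65 on average. Such a pattern, with a mean below -1, was met by 4 of the 23 unused probe sets at or above the table median, by 0 of the 34 used ones and by 1.63% of all 19803 probe sets at that level. With no limit on the mean, 3 of the 34 used probe sets (8.8%, against 8.2% of all) were lower in every such pair: those of Fancd2 (-0.71), Blm (-0.70) and Fance (-0.37). The part of RNA integrity in these differences was not tested. For Actb, the 3′ to 5′ difference was larger on the same array of the pair at E9.5 and E10.5. It was smaller on that array at E11.5 and in both sexes at E13.5. In these pairs the mean difference was -0.16 for the probe set used for Brca1 and -0.29 for that of Usp1.

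**Figure D5:**
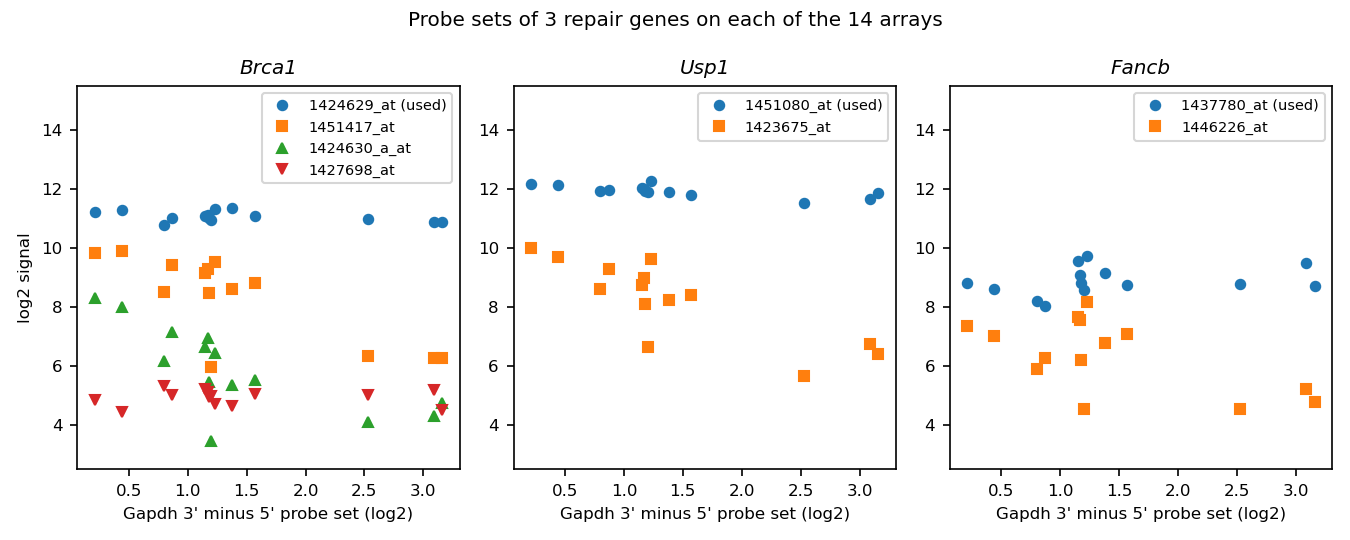
Log2 signal of the probe sets of Brca1, Usp1 and Fancb (those with a mean at or above the table median) on each of the 14 arrays, against the Gapdh 3′ minus 5′ signal of that array; blue circles are the probe sets used. The probe sets used for Brca1 and Usp1 span 0.57 and 0.74. In 5 replicate pairs the Gapdh difference was unequal by more than 0.5. In all of these, 4 other probe sets of Brca1, Usp1 and Fancb were lower on the array with the larger difference.

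Other genes of these pathways were read from a list of 61, of which 56 were measured. In E13.5 females against E10.5, 10 rose and 4 fell (25%, against 17.8% of all genes and 24% of those not below the table median; limma). Without E13.5 female replicate 1, 4 rose and 2 fell (10.7%, against 10.4% of all genes). In E13.5 males 2 rose and 4 fell (10.7%, against 12.7% of all genes and 17% of those not below the table median). These shares are near those over all genes or below them.

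Of the recombination genes in that list, Dmc1, a recombinase of meiosis, read 9.45 and 8.66 in E13.5 females and 6.79 and 6.38 in E13.5 males, against 5.56 and 6.11 at E10.5. It rose by 3.22 in females, more than any repair gene above (2.83 without E13.5 female replicate 1, adjusted p = 0.00299), and by 1.77 in E13.5 females against E12.5 females, a call lost without that array (0.283). Rpa2, a subunit of the protein that coats single strands, rose by 0.95 in females and 0.85 in males. Zswim7, Sfr1 and the helicase gene Recql rose in females by 0.77, 0.63 and 0.57. Slx1b, the nuclease partner of SLX4, fell by 1.06 in females and 1.44 in males. Of these, the female calls of Dmc1 and Rpa2 against E10.5 held without E13.5 female replicate 1, and those of Zswim7, Sfr1, Recql and Slx1b did not.

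Of the Fanconi genes, Faap20, a ubiquitin-binding partner of FANCA, fell by 2.05 in females, and already by 1.22 in E12.5 females against E11.5. Rev3l, the catalytic subunit of a polymerase that copies past lesions, rose by 1.67 in females, and its partner Mad2l2 fell by 1.28 in males. Ube2t, the conjugating enzyme that works with FANCL, and the ubiquitin ligase gene Rad18 rose in females by 0.78 and 0.77, and Faap24 fell by 0.99 in males. The Ube2t and Rad18 calls were lost without E13.5 female replicate 1 (0.277 and 0.244), and those of Faap20 and Rev3l held.

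Of the damage signalling genes, Uimc1, which brings BRCA1 to ubiquitin at breaks, rose by 1.74 in females and 1.46 in males. Rad9a, part of the clamp that activates ATR, fell by 2.27 and 1.10. Both female calls held without E13.5 female replicate 1. Rnf8, a ubiquitin ligase at breaks, rose by 0.79 in females and H2ax, the histone marked at breaks, fell by 0.89, and neither call held without that array (0.143 and 0.246).

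Between the sexes, 1 gene of the list was higher and 1 lower in males at E12.5 (3.57%, against 2.38% of all genes), and 3 were higher and 5 lower at E13.5 (14.3%, against 10.1% of all genes and 13.2% of those not below the table median). Faap20 was higher in males by 1.30 at E12.5 and 2.32 at E13.5, and Dmc1 was lower by 1.69 and 2.47 (limma). At E13.5 Rad9a and Trp53bp1 were also higher in males, by 1.17 and 0.62. Rev3l, Helq, Mad2l2 and Clspn were lower by 1.02, 0.94, 0.87 and 0.60. Without E13.5 female replicate 1, the E13.5 calls of Faap20 and Dmc1 alone remained.

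A list of 20 DNA replication genes was set beside these. In E13.5 females 0 rose and 1 fell against E10.5 (Mcm10, an initiation factor; median change of the list 0.01, against 17.8% and 0.08 for all genes). In E13.5 males 0 rose and 3 fell (Ccne1, Cdt1 and Rrm2; median change -0.23, against 12.7% and 0.07 for all genes). Between the sexes at E13.5, Ccne1 was lower in males by 0.80. The Mcm10 and Ccne1 calls were lost without E13.5 female replicate 1 (0.190 and 0.144), and Cdc45 then passed as lower in females. The median change of the 35 repair genes was 0.26 in females and 0.12 in males, against 0.11 in each sex for genes not below the table median. The female value uses E13.5 female replicate 1. Without that array the median of the replication list was -0.09, and that of the repair genes is not given.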

How the data were processed

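The deposited values are log2 probe set signals of 45101 probe sets, which the authors normalized jointly with the E9.5 arrays per the series' design text; their software and summarization method is not given in the sources used here. RNA was amplified by PCR before labelling, which can favour the 3′ ends of transcripts, and no detection calls were used. A single symbol was listed for 34945 probe sets, and 10156 with several, none or control status were left out. Each gene is the probe set with the highest mean. The tests used limma 3.58.1 (R 4.3.3) with a mean for each group and moderated variances that follow intensity: 12 arrays from E10.5 on (6 residual degrees of freedom) for 10 comparisons, all 14 (7) for E10.5 against E9.5. Benjamini-Hochberg adjustment of two-sided p-values ran over 18193 genes within each comparison, with a threshold of 0.05. The code was tested on simulated data. The precision is limited by having 2 arrays in a group; the labels call them biological replicates and do not say whether they came from separate litters or pools, so p-values measure the spread between these arrays. With 2 arrays in a group, unchanged genes also often show no overlap, and genes that passed are likely to show none. Absence of overlap is therefore a description and adds no evidence to a call, and its share over all genes is not given. Gene positions and promoters come from RefSeq tables of GRCm38.p6, matched by symbol. Members of the set that passed in a comparison are given with values on each array; other pathway genes are named where they passed, up to 4 per list and comparison in order of adjusted p. Probe sets beyond the one used, and the marker genes named, were chosen for mention after their values were seen. The repair genes, the other lists and the tests were chosen with earlier results of these data known.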

Additional observations from a re-analysis of the deposited data

Results flagged for a closer look

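In 4 cases males and females of the same age differed, by the test of the male minus female difference (limma, adjusted over all genes). The earlier groups carry no sex label, so the change of each sex from them was not measured separately. Each of these calls depended on which arrays were used, as given above. Fancb, the X-linked core complex gene, differed by -1.215 at E12.5 and -0.865 at E13.5. Bard1, the partner of BRCA1, differed by -0.745 at E13.5, and Mus81, the nuclease, by 1.385 at E13.5. Each difference is male minus female on the log2 scale. At E12.5, 2.86% of the repair genes passed, against 2.38% of all genes. At E13.5 the shares were 8.57% and 10.1%. Groups of 2 allow no search for outlying arrays.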

How the results depend on the processing

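Counts of repair genes past the threshold changed with the processing, and no gene called changed direction. The Gapdh settings, the crossed pairing and the tests of single probe sets were chosen after seeing the data. E13.5 females against E10.5 gave 10 genes, and 5 with the mean of all probe sets, 4 without the intensity trend, 4 without both arrays of a Gapdh difference above 3, 4 with that difference as a covariate, 0 when fitted on the compared arrays alone, 1 with the crossed replicate block on those arrays, and 3 to 8 with an array left out. E13.5 males against E10.5 gave 4, and 1 with the mean of probe sets, 1 without the trend, 1 without the Gapdh arrays, 0 on the compared arrays alone, 0 with the crossed block, and 0 to 4 with an array left out. The sexes at E13.5 gave 3, and 1 without the trend, 0 without the Gapdh arrays, and 0 to 2 with an array left out. The sexes at E12.5 gave 1 (Fancb), and 0 with quantile normalization, 0 with the mean of probe sets, 0 without the trend and 0 without any 1 array. E10.5 against E9.5 gave 1 (Bard1), and 0 without the trend, 0 on the compared arrays alone and 0 to 4 with an array left out. With the replicate block the counts were 9, 3, 3, 1 and 1 in the same order; deviations of same-numbered arrays correlated between -0.43 and 0.61 and the labels tie the numbers to no batch, so no pairing is assumed. Of the 19 calls, 3 held whichever array was left out (Atm, Atr and Palb2 in females) and 4 were lost without any of their arrays. The cause of these changes was not tested. The counts over all 18193 genes moved as well. For E13.5 females against E10.5 they were 2488 with the mean of probe sets, 2749 without the trend and 1211 with the crossed block. For E13.5 males they were 1826, 1894 and 463. Over all genes, E13.5 females against E10.5 gave 3238 (981 to 3361 over the alternatives), E13.5 males 2311 (463 to 2688), the sexes at E13.5 1846 (409 to 1891), the sexes at E12.5 433 (94 to 766), and E10.5 against E9.5 193 (0 to 1928).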
